A study of Mus musculus with 9 samples.

Results

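Histone chaperones are proteins that carry histones to and from DNA, and the genes described here encode FACT and 7 further chaperone subunits of the replication-coupled and replication-independent assembly routes. They were chosen as the rows of the array whose single annotated gene symbol was Supt16, Ssrp1, Asf1a, Asf1b, Chaf1a, Chaf1b, Nap1l1, Hira or Ubn1. Of these 9 genes 8 had a row, out of 19938 genes tested, and each had a single row. Ssrp1, the partner of Supt16 in FACT, had none and was not analysed here.

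The 9 arrays came from immortalized fibroblasts of ICR mouse embryos that had been infected for 2 h with adenovirus coding for a short hairpin RNA (shRNA) and grown for another 70 h at 37 °C in medium with 10% serum. The groups were RPA1 shRNA, aimed at the biggest subunit of RPA, which coats single-stranded DNA, HSF1 shRNA, aimed at HSF1, the main transcription factor of the heat shock response, and control shRNA, a scrambled sequence, with 3 arrays each. All groups, the control included, carried the adenovirus. Neither separate cultures within a group nor the number of hairpins per target is given in the labels, so p-values measure only the spread between these arrays.

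FACT loosens and rebuilds nucleosomes in front of and behind RNA polymerase and DNA polymerase, handling mainly the pair of histones H2A and H2B. Newly made histones H3 and H4 are bound by the ASF1 proteins, which pass them to CAF-1, a complex that assembles nucleosomes on newly copied DNA, or to the HIRA complex, which places the variant histone H3.3 outside replication. UBN1 (ubinuclein) is the subunit of the HIRA complex that recognises that variant, and NAP1L1 carries H2A and H2B.

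Rpa1 itself read 9.42, 9.34 and 9.40 in the RPA1 shRNA arrays, 11.35, 11.33 and 11.30 in the HSF1 shRNA arrays and 11.40, 11.42 and 11.41 in the control shRNA arrays, on the log2 signal scale used throughout. The RPA1 target was thus lower on every RPA1 shRNA array than on every other array, while the Hsf1 transcript was not analysed here. Over all arrays the fibroblast markers Vim and Col1a1 were bright (14.01 to 14.16 and 12.23 to 13.06), while Thy1 (7.92 to 8.23) and Lum (4.58 to 5.52) were not. The blood cell gene Ptprc lay at 5.90 to 6.18 and Cd68 at 8.08 to 10.61. The endothelial genes Pecam1 and Kdr lay at 6.79 to 7.10 and 7.38 to 8.14, and the epithelial genes Epcam and Krt8 at 6.72 to 7.21 and 8.58 to 9.11. The levels of the marker lists thus overlapped. The summed linear signal of the 10 fibroblast markers was 35510 to 38830 in RPA1 shRNA arrays, 44410 to 45940 in HSF1 shRNA arrays and 47880 to 48820 in control shRNA arrays. For 5 blood cell markers it was 1421 to 2060, 888.6 to 894.2 and 696.5 to 789.3 in the same groups, for 5 epithelial markers 1263 to 1447, 1474 to 1489 and 1232 to 1264, and for 4 endothelial markers 528.1 to 648.3, 597.6 to 621.9 and 524 to 559.5. Of the 10 fibroblast markers 7 fell under RPA1 shRNA and 4 fell and 1 rose under HSF1 shRNA, and of the 5 blood cell markers 2 rose under RPA1 shRNA, Cd68 4.16-fold and Csf1r 1.28-fold, and 1 under HSF1 shRNA, Csf1r. The epithelial gene Krt14 (log2 difference 0.61 and 0.28) and Pecam1 (0.17 and 0.20) rose under both RPA1 shRNA and HSF1 shRNA, the 1 gene called in each of their lists. Of all genes tested, 15.4% rose and 14.7% fell under RPA1 shRNA, and 9.89% rose and 6.21% fell under HSF1 shRNA. The part of these marker shifts in the results below was not tested, and in bulk RNA fewer cells of a type and less RNA per cell cannot be told apart. RPA1 shRNA array 3 stood apart from its group, with an array weight of 0.21 against 0.58 to 3.08 on the other 8 arrays, so results that rest on it are given with and without it.

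Ubn1 and Asf1b were the only genes of the set that passed against control shRNA. The DNA before their start sites is shown so that their neighbourhood can be read beside the values. The Ubn1 stretch is the whole gap of 118 bases between Ubn1 and the gene on its other side, Glyr1, and the Asf1b stretch is the 250 bases before its start. Both are from RefSeq on build GRCm38.p6, plus strand, at chr16:5049939-5050056 for Ubn1 and chr8:83955444-83955693 for Asf1b. Capitals mark matches to the CCAAT box, a short promoter element, here in its reverse form:
Ubn1: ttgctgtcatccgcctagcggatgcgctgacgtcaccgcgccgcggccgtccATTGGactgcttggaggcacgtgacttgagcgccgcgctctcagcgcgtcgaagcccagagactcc
Asf1b: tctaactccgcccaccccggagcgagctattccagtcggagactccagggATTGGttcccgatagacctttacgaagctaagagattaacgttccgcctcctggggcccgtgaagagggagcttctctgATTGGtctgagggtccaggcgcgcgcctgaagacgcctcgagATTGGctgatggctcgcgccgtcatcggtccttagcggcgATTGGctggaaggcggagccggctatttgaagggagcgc

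Over the 250 bases before the start, Asf1b held 4 matches to CCAAT (either strand) and Ubn1 2, of which the second lies in the stretch printed. Of the 8 measured genes 5 held at least 1 match, where 33.8% of 32851 mouse promoter windows of that length did. The 5 include Nap1l1, whose window (chr10:111472977-111473226) lies inside the annotated gene and not before its outermost start. The heat shock element to which HSF1 binds was searched as GAANNTTC and TTCNNGAA, each of which is its own reverse complement, and was matched in 0 of the 8 windows (12.8% of all windows). The E2F letters TTTCCCGC and TTTGGCGC, on either strand, were matched in 0 of 8 (1.3% of all windows). The GC box letters GGGCGG, on either strand, were matched in 6 of 8 (32.7% of all windows). These matches describe letters only.

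On build GRCm38.p6 Ubn1 lies at chr16:5050057-5086289, Hira at chr16:18876750-18970309 and Chaf1b at chr16:93883900-93906115. Asf1b lies at chr8:83955694-83970195, Asf1a at chr10:53596961-53609225, Nap1l1 at chr10:111472882-111498150, Chaf1a at chr17:56040416-56068026 and Supt16 at chr14:52160419-52197239.

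Ubn1 showed the widest spread between groups among the 8 genes. It read 10.36, 10.50 and 10.10 in the RPA1 shRNA arrays, 8.65, 8.47 and 8.56 in the HSF1 shRNA arrays and 9.88, 9.90 and 9.87 in the control shRNA arrays. The 3 groups did not overlap: every RPA1 shRNA array lay above every control shRNA array, and every HSF1 shRNA array lay more than 1 log2 unit below. Under HSF1 shRNA Ubn1 fell to 40.0% of the control level (log2 difference -1.32 ± 0.09, SE, limma adjusted p = 6.8e-05, n = 3 arrays per group), the 14th largest fall among the 19938 genes. Under RPA1 shRNA it rose 1.35-fold (log2 difference 0.43 ± 0.09, limma adjusted p = 0.0057), only the 1216th largest rise of that comparison. The change was thus opposite in sign under the 2 hairpins, and the direct comparison gave 3.38-fold more in RPA1 shRNA than in HSF1 shRNA arrays (log2 difference 1.76 ± 0.09, limma adjusted p = 2.9e-05), the 9th largest positive difference of that comparison.

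The Ubn1 calls did not rest on a single array. Over 19 alternatives, among them 3 other scalings and leaving out each of the 9 arrays, the HSF1 shRNA difference lay between -1.37 and -1.28, the RPA1 shRNA difference between 0.34 and 0.54, and the direct difference between 1.67 and 1.87, with all 19 past the threshold in each comparison. Without RPA1 shRNA array 3, which had the lowest Ubn1 reading of its group, the rise was 0.54 (limma adjusted p = 0.00019).

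**Figure D1:**
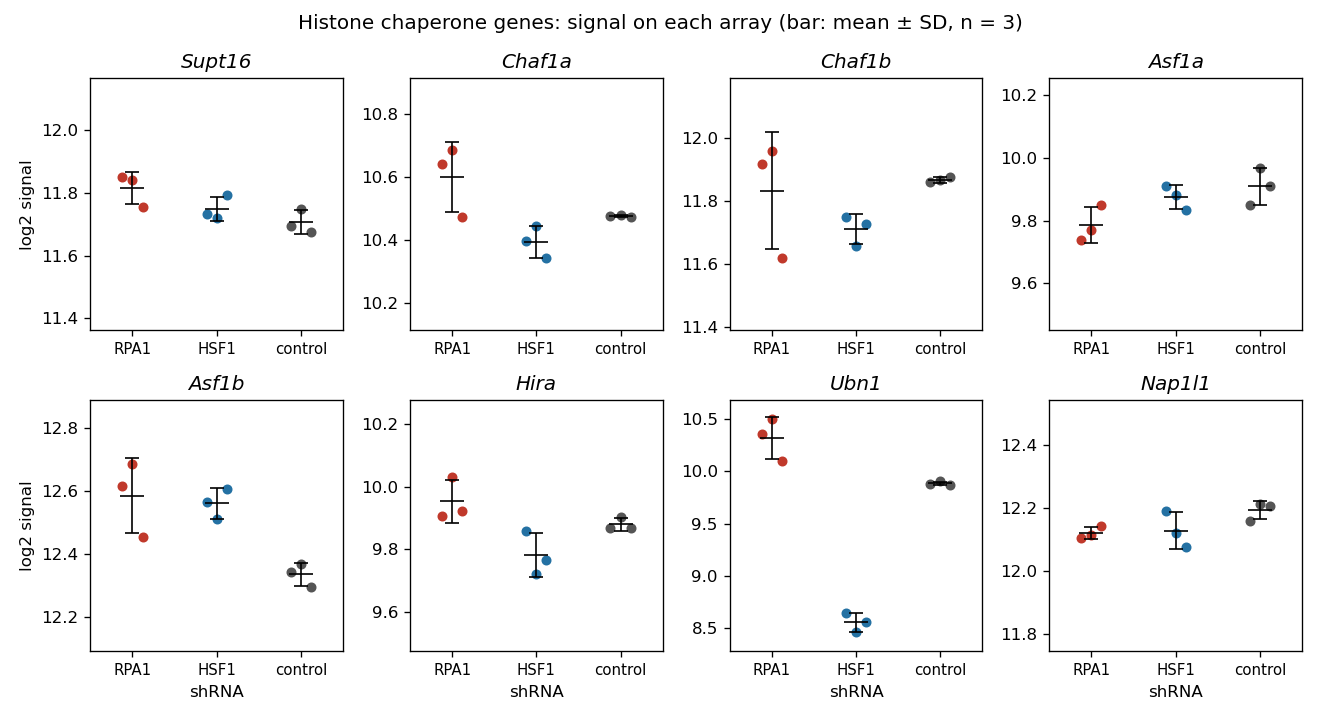
Log2 signal (vertical axis) of the 8 measured genes on each array, grouped by shRNA (horizontal axis), where points are arrays and bars the mean ± SD of 3 arrays. The vertical axes of 7 panels span equal ranges and that of Ubn1 spans a wider one. Ubn1 separates the groups most widely, at 8.47 to 8.65 in HSF1 shRNA arrays against 9.87 to 9.90 in control shRNA arrays.

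Hira, the gene of the scaffold subunit that UBN1 binds, moved far less. It read 9.91, 10.03 and 9.92 in the RPA1 shRNA arrays, 9.86, 9.72 and 9.77 in the HSF1 shRNA arrays and 9.87, 9.90 and 9.87 in the control shRNA arrays. The RPA1 shRNA arrays all lay above the control range and the HSF1 shRNA arrays all below it. Neither difference from the control passed the test, at 0.07 ± 0.05 for RPA1 shRNA (limma adjusted p = 0.37) and -0.10 ± 0.05 for HSF1 shRNA (limma adjusted p = 0.28). The direct comparison gave Hira 1.13-fold higher in RPA1 shRNA than in HSF1 shRNA arrays (log2 difference 0.17 ± 0.05, limma adjusted p = 0.048). That call was lost in 11 of 19 alternatives, among them leaving out any 1 of control shRNA arrays 1 to 3, HSF1 shRNA arrays 2 or 3 and RPA1 shRNA arrays 1 or 2 (limma adjusted p = 0.068 to 0.16).

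The other genes of the HIRA complex, named after their values had been seen, did not pass in any of the comparisons. Cabin1, the gene of its calcineurin-binding subunit, differed from control by -0.04 ± 0.05 under RPA1 shRNA and 0.07 ± 0.05 under HSF1 shRNA (limma adjusted p = 0.58 and 0.38). Ubn2, the paralog of Ubn1, differed by 0.04 ± 0.06 and 0.14 ± 0.06 (limma adjusted p = 0.67 and 0.13). The 95% interval of the Ubn2 difference under HSF1 shRNA was 0.02 to 0.27, and that of Ubn1 was -1.53 to -1.12. These intervals are not adjusted for the number of genes, and the Ubn2 arrays overlapped those of the control.

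The genes on either side of Ubn1 on chromosome 16 were looked up after its values had been seen. Glyr1, which lies on the opposite strand 118 bases before the Ubn1 start and encodes a nucleosome-binding cofactor, differed from control by 0.14 ± 0.05 under RPA1 shRNA and 0.12 ± 0.05 under HSF1 shRNA (limma adjusted p = 0.084 and 0.18). Ppl, the periplakin gene whose annotation begins just past the other end of Ubn1, rose under HSF1 shRNA (0.69 ± 0.09, limma adjusted p = 0.0012), and differed by -0.10 ± 0.09 under RPA1 shRNA (limma adjusted p = 0.45). Neither neighbour shared the fall of Ubn1 under HSF1 shRNA.

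The 3 genes whose profiles lay nearest to that of Ubn1 over the 9 arrays, by the mean absolute gap between log2 values centred on each gene's mean, were Tor1b (gap 0.14), which encodes a torsin ATPase, Tbc1d24 (0.18) and Prps2 (0.21), which encodes a phosphoribosyl pyrophosphate synthetase. Tor1b read 10.64, 10.79 and 10.42 in RPA1 shRNA arrays, 9.34, 9.25 and 9.08 in HSF1 shRNA arrays and 10.28, 10.29 and 10.27 in control shRNA arrays. Their log2 differences from control were 0.34, 0.23 and 0.21 under RPA1 shRNA and -1.06, -1.02 and -0.98 under HSF1 shRNA, for Tor1b, Tbc1d24 and Prps2 in that order. These genes were picked for their likeness to Ubn1, so the values are a description.

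**Figure D2:**
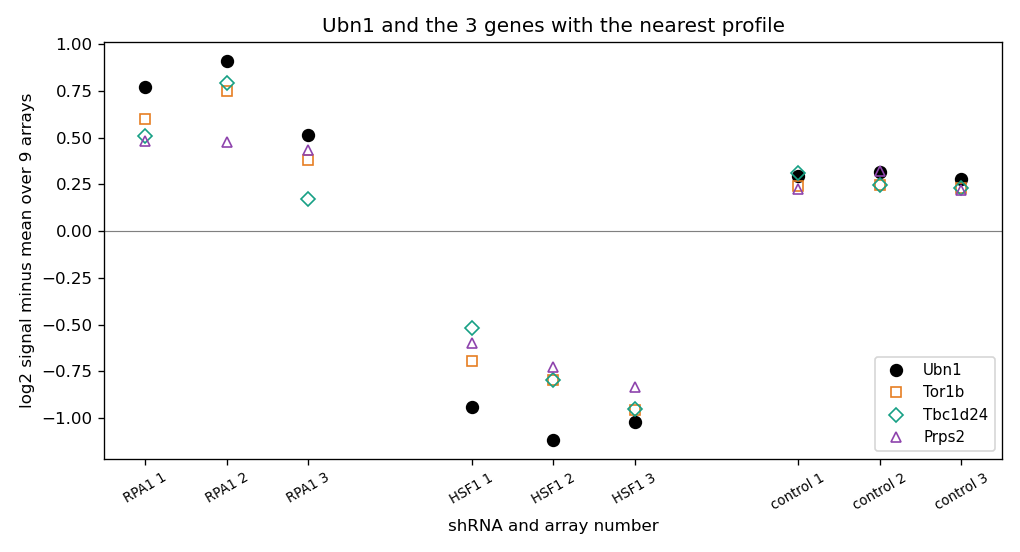
Log2 signal minus each gene's mean over the 9 arrays (vertical axis) for Ubn1, Tor1b, Tbc1d24 and Prps2 on each array (horizontal axis, by shRNA and array number). All 4 genes are lowest on the HSF1 shRNA arrays, and Ubn1 has the lowest point of the 4 on each of these.

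The ASF1 paralogs behaved differently from each other. Asf1b, the form made mainly in dividing cells, read 12.62, 12.69 and 12.45 in RPA1 shRNA arrays, 12.57, 12.51 and 12.61 in HSF1 shRNA arrays and 12.34, 12.37 and 12.29 in control shRNA arrays. Every array of both knockdown groups lay above every control shRNA array. Asf1b rose 1.19-fold under RPA1 shRNA (log2 difference 0.25 ± 0.06, limma adjusted p = 0.015) and 1.17-fold under HSF1 shRNA (0.23 ± 0.06, limma adjusted p = 0.04), comparisons that share the control shRNA arrays. The RPA1 shRNA minus HSF1 shRNA difference was 0.02 ± 0.06 (limma adjusted p = 0.84), with a 95% interval of -0.12 to 0.17.

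Both Asf1b rises lost their call in some alternatives, passing in 16 of 19 under RPA1 shRNA and in 7 of 19 under HSF1 shRNA. Among the absolute differences of all genes they stood at percentile 73.0 under RPA1 shRNA and 80.5 under HSF1 shRNA. Under RPA1 shRNA the call was lost without control shRNA array 3 (limma adjusted p = 0.06), RPA1 shRNA array 1 (0.053) or RPA1 shRNA array 2 (0.052), and the difference was 0.32 without RPA1 shRNA array 3. Under HSF1 shRNA it was lost in 12 of 19 alternatives, with limma adjusted p = 0.052, 0.074 and 0.086 under the quantile, median and cyclic loess scalings and 0.056 to 0.14 without any 1 of the 6 arrays compared or RPA1 shRNA array 1. The difference stayed positive in all of these, between 0.18 and 0.25.

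Asf1a, the paralog also made in resting cells, read 9.74, 9.77 and 9.85 in RPA1 shRNA arrays, 9.91, 9.88 and 9.83 in HSF1 shRNA arrays and 9.85, 9.97 and 9.91 in control shRNA arrays. The groups overlapped. The difference from control was -0.12 ± 0.05 under RPA1 shRNA (limma adjusted p = 0.11) and -0.03 ± 0.05 under HSF1 shRNA (limma adjusted p = 0.73). Without RPA1 shRNA array 3 the RPA1 shRNA difference passed, at -0.15 (limma adjusted p = 0.046). The direct difference, RPA1 shRNA minus HSF1 shRNA, was -0.09 ± 0.05 (limma adjusted p = 0.27).

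CAF-1 was measured through Chaf1a, the gene of its large subunit, and Chaf1b, that of its middle subunit. Chaf1a read 10.64, 10.69 and 10.47 in RPA1 shRNA arrays, 10.40, 10.44 and 10.34 in HSF1 shRNA arrays and 10.48, 10.48 and 10.47 in control shRNA arrays. Arrays 1 and 2 of RPA1 shRNA lay above all control shRNA arrays, array 3 lay level with them, and the HSF1 shRNA arrays lay below them. The differences from control were 0.12 ± 0.06 under RPA1 shRNA (limma adjusted p = 0.16) and -0.08 ± 0.06 under HSF1 shRNA (limma adjusted p = 0.43), of which the RPA1 shRNA value was 0.19, past the threshold, once array 3 of that group was left out (limma adjusted p = 0.014). Directly compared, Chaf1a was higher in RPA1 shRNA than in HSF1 shRNA arrays (log2 difference 0.21 ± 0.06, limma adjusted p = 0.035), a call lost in 10 of 19 alternatives, 8 of which left out 1 of the arrays other than RPA1 shRNA array 3 (limma adjusted p = 0.055 to 0.12).

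Chaf1b read 11.92, 11.96 and 11.62 in RPA1 shRNA arrays, 11.75, 11.66 and 11.73 in HSF1 shRNA arrays and 11.86, 11.87 and 11.88 in control shRNA arrays. RPA1 shRNA array 3 was its lowest reading of all 9, while the other RPA1 shRNA arrays were its highest. The RPA1 shRNA difference was -0.03 ± 0.08 (limma adjusted p = 0.81) with all arrays and 0.07 without array 3 (limma adjusted p = 0.29). The HSF1 shRNA difference was -0.16 ± 0.08 (limma adjusted p = 0.25), with no overlap between the groups. It passed without RPA1 shRNA array 3, whose spread enters the shared error (limma adjusted p = 0.029), and so did the direct difference, at 0.12 ± 0.08 with all arrays (limma adjusted p = 0.34) and 0.23 without that array (limma adjusted p = 0.0054). Rbbp4, also named after its values had been seen and the gene of the histone-binding subunit that CAF-1 shares with other complexes, differed by -0.12 ± 0.06 under HSF1 shRNA (limma adjusted p = 0.21), and its RPA1 shRNA difference had a 95% interval of -0.13 to 0.13.

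The measured FACT gene, Supt16, passed in none of the comparisons with all arrays. It read 11.85, 11.84 and 11.76 in RPA1 shRNA arrays, 11.73, 11.72 and 11.79 in HSF1 shRNA arrays and 11.69, 11.75 and 11.68 in control shRNA arrays. The RPA1 shRNA arrays lay above the control range and the HSF1 shRNA arrays overlapped it. The RPA1 shRNA difference was 0.11 ± 0.05 (limma adjusted p = 0.13) and the HSF1 shRNA difference 0.04 ± 0.05 (limma adjusted p = 0.64). Their 95% intervals, -0.0009 to 0.22 and -0.07 to 0.15, bound the changes that these arrays allow. Without RPA1 shRNA array 3 the RPA1 shRNA difference was 0.14, just short of the threshold (limma adjusted p = 0.05). That difference passed in 1 of 19 alternatives, with array weights (0.14, limma adjusted p = 0.013).

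Nap1l1 read 12.11, 12.12 and 12.14 in RPA1 shRNA arrays, 12.19, 12.12 and 12.08 in HSF1 shRNA arrays and 12.16, 12.21 and 12.21 in control shRNA arrays. The RPA1 shRNA arrays lay just below the control range, and the HSF1 shRNA arrays overlapped it. Its differences from control were -0.07 ± 0.05 and -0.06 ± 0.05 (limma adjusted p = 0.3 and 0.43) for RPA1 shRNA and HSF1 shRNA, with 95% intervals of -0.18 to 0.03 and -0.17 to 0.04.

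**Figure D3:**
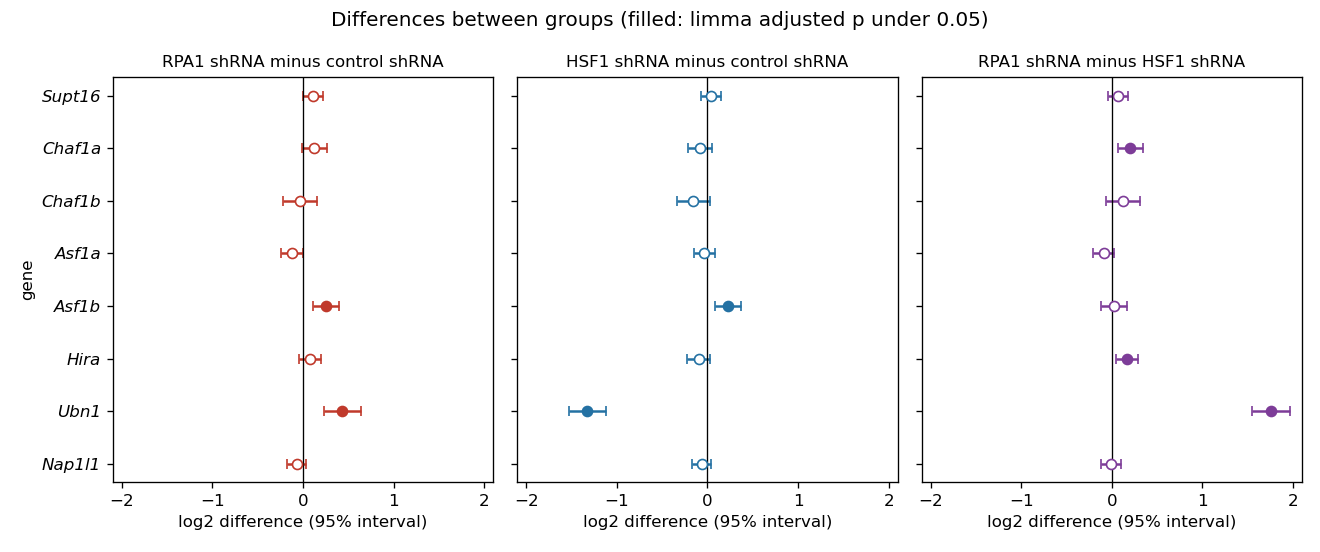
Log2 difference (horizontal axis) with its 95% interval from limma for each gene (vertical axis) in the 3 comparisons, where filled points passed an adjusted p of 0.05. Ubn1 stands at 0.43, -1.32 and 1.76, while the largest difference of any other gene, that of Asf1b under RPA1 shRNA, is 0.25.

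Counted together, 2 of the 8 genes rose and 0 fell under RPA1 shRNA, a comparison in which 30.1% of all genes passed the limma threshold, 15.4% of them upward and 14.7% downward as shares of all genes. The median difference of the 8 was 0.09, against 0.02 over all genes. Under HSF1 shRNA 1 rose and 1 fell, against 16.1% of all genes called (9.89% upward and 6.21% downward, or 1971 and 1239 genes, against 1593 and 1717 with median and 1691 and 1734 with cyclic loess scaling), with a median of -0.07 against 0.04 over all genes. In the direct comparison 3 genes were higher in RPA1 shRNA and 0 lower, against 24.4% of all genes called (9.71% higher and 14.7% lower, or 1935 and 2928 genes, against 2672 and 2426 with median scaling), with a median of 0.09 against -0.02. The arrays of the groups did not overlap for 5 of 8 genes under RPA1 shRNA (41% of all genes), 5 of 8 under HSF1 shRNA (37.9%) and 3 of 8 in the direct comparison (34.5%). By limma's unadjusted p under 0.05, 2 were higher and 1 lower under RPA1 shRNA (39.4% of all genes), 1 higher and 1 lower under HSF1 shRNA (28.6%) and 3 higher and 0 lower in the direct comparison (35.3%). With array 3 of RPA1 shRNA left out, 4 of the 8 passed under RPA1 shRNA, and 1 did so without control shRNA array 3, RPA1 shRNA array 1 or RPA1 shRNA array 2. The count under HSF1 shRNA was 1 without any 1 of the 6 arrays compared or RPA1 shRNA array 1, and in the direct comparison 1 without any 1 control shRNA array, HSF1 shRNA arrays 2 or 3 or RPA1 shRNA arrays 1 or 2.

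A wider list of 31 other histone chaperones and assembly factors had 29 measured. Under RPA1 shRNA 3 of the 29 rose and 5 fell, where 15.4% of all genes rose and 14.7% fell. The median difference of the list was 0.0002. The falls were led by Oip5, a loading factor of the centromeric histone (-0.57 ± 0.08, limma adjusted p = 6e-04), Anp32a, an acidic nuclear protein (-0.48 ± 0.05, 0.00019), and Mms22l, which acts with TONSL on new histones at forks (-0.41 ± 0.05, 3e-04). The rises were Dnajc9, a co-chaperone for H3 and H4 (0.24 ± 0.06, limma adjusted p = 0.014), Supt6, an elongation factor and chaperone (0.18 ± 0.05, 0.02), and the remodeller gene Chd1 (0.15 ± 0.05, 0.033). All 3 rises were lost without at least 1 array: Dnajc9 without control shRNA array 3, Supt6 without control shRNA arrays 2 or 3 or RPA1 shRNA array 2, and Chd1 without control shRNA arrays 1 or 2 or RPA1 shRNA arrays 1 or 2, as well as with median scaling, the replicate block and the 6 arrays compared. Without control shRNA array 3 the list had 1 rise and 4 falls.

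Under HSF1 shRNA 2 of these 29 rose and 3 fell, with a median of 0.01, where 9.89% of all genes rose and 6.21% fell. Daxx, whose protein deposits H3.3 with ATRX, rose by 0.34 ± 0.06 (limma adjusted p = 0.0062) and Chd1 by 0.26 ± 0.05 (0.0056). Oip5 (-0.36 ± 0.08, limma adjusted p = 0.015), Atrx (-0.23 ± 0.06, 0.022) and Mms22l (-0.21 ± 0.05, 0.023) fell, with 0 of these falls left without control shRNA array 3 and 1 without control shRNA arrays 1 or 2 or HSF1 shRNA arrays 2 or 3. In the direct comparison 1 gene of the list was higher and 4 lower in RPA1 shRNA, where 9.71% of all genes were higher and 14.7% lower. The lower genes of the list were led by Anp32a (-0.39 ± 0.05, limma adjusted p = 0.0011), Hat1, the acetyltransferase of new H4 (-0.31 ± 0.06, 0.0067), and Spty2d1 (-0.28 ± 0.07, 0.012). The higher gene, Dnajc9, passed in 9 of 19 alternatives. The count of the list was 3 lower and 0 higher without HSF1 shRNA arrays 1 or 2 or RPA1 shRNA array 2, and 5 lower and 3 higher without RPA1 shRNA array 3. No gene of this list changed as much as Ubn1 did under HSF1 shRNA: their differences from control lay between -0.36 and 0.34 there.

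**Figure D4:**
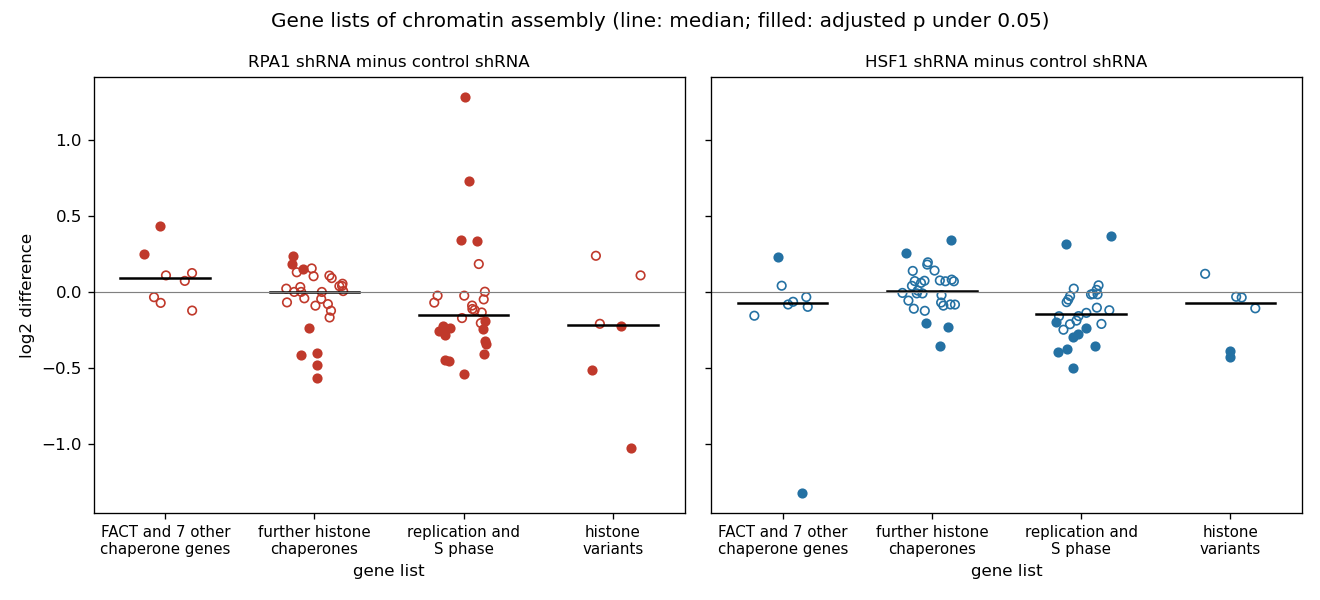
Log2 difference from control shRNA (vertical axis) for each gene of 4 lists (horizontal axis), under RPA1 shRNA on the left and HSF1 shRNA on the right, where filled points passed an adjusted p of 0.05 and lines mark medians. The point at -1.32 under HSF1 shRNA is Ubn1, below all others on that side.

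Replication and S phase genes, whose products work where CAF-1 and ASF1 assemble new chromatin, are given beside Asf1b and the CAF-1 genes. Of 28 measured, 4 rose and 12 fell under RPA1 shRNA (median -0.15), where 15.4% of all genes rose and 14.7% fell (median 0.02). Under HSF1 shRNA 2 rose and 8 fell (median -0.15), where 9.89% of all genes rose and 6.21% fell (median 0.04). The cyclin E gene Ccne1 rose in both, by 1.28 ± 0.05 under RPA1 shRNA (limma adjusted p = 1.5e-06) and 0.37 ± 0.05 under HSF1 shRNA (0.0019), and the polymerase gene Pold1 fell by 0.45 and 0.50 on the log2 scale in the same order (0.001 and 0.0016). Other genes passed under RPA1 shRNA only. E2f1 differed by 0.73 ± 0.17 under RPA1 shRNA and -0.10 ± 0.17 under HSF1 shRNA (limma adjusted p = 0.011 and 0.75). Gins4 differed by -0.54 ± 0.06 and -0.19 ± 0.06 in the same order (0.00012 and 0.052). In the direct comparison 4 genes of the list were higher and 5 lower in RPA1 shRNA, where 9.71% of all genes were higher and 14.7% lower. The HSF1 shRNA count was 1 rise and 5 falls without control shRNA array 3. Over the 19 alternatives the list had 3 to 5 rises and 8 to 16 falls under RPA1 shRNA. Under HSF1 shRNA it had 1 to 2 rises and 5 to 14 falls. The part of these genes in the Asf1b rise was not tested.

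Among the histone variants that such chaperones carry, 6 of 8 genes were measured, and those of H3.3 were not analysed here. Of all genes 15.4% rose and 14.7% fell under RPA1 shRNA, and 9.89% rose and 6.21% fell under HSF1 shRNA. In the direct comparison 9.71% of all genes were higher and 14.7% lower. By limma's unadjusted p under 0.05, 39.4% of all genes passed under RPA1 shRNA and 28.6% under HSF1 shRNA. Under RPA1 shRNA 0 of the 6 variant genes rose and 3 fell, H2az2 by 1.03 on the log2 scale (SE 0.06, limma adjusted p = 6.7e-06), Macroh2a2 by 0.51 (SE 0.05, 0.00013) and H2az1 by 0.22 (SE 0.05, 0.0086). By the unadjusted p under 0.05, 1 was higher and 4 were lower. Without RPA1 shRNA array 3, 1 gene passed upward and 4 downward. Under HSF1 shRNA 0 rose and 2 fell, H2az2 (-0.43 ± 0.06, limma adjusted p = 0.0021) and Macroh2a2 (-0.39 ± 0.05, 0.0018), against 1 higher and 2 lower by the unadjusted p. In the direct comparison 1 was higher in RPA1 shRNA than in HSF1 shRNA arrays, H2ax (0.35 ± 0.10, limma adjusted p = 0.031), and 2 were lower, H2az2 (-0.60 ± 0.06, 0.00028) and H2az1 (-0.18 ± 0.05, 0.025). Without HSF1 shRNA arrays 1 or 2 or RPA1 shRNA arrays 1 or 2 that count was 0 higher and 1 lower. The H2ax call passed in only 9 of 19 alternatives (limma adjusted p up to 0.11). It was lost without any 1 array other than RPA1 shRNA array 3, with the unmoderated test and with the 6 arrays compared. The H2az1 call passed in 12 of 19.

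Of 8 heat shock chaperone genes controlled by HSF1 in heated cells, 6 were measured in these unheated cells. Of all genes 15.4% rose and 14.7% fell under RPA1 shRNA, and 9.89% rose and 6.21% fell under HSF1 shRNA. In the direct comparison 9.71% of all genes were higher and 14.7% lower. By limma's unadjusted p under 0.05, 39.4% of all genes passed under RPA1 shRNA and 28.6% under HSF1 shRNA. Under RPA1 shRNA 3 of the 6 chaperone genes rose and 0 fell, among them Hsph1 (0.64 ± 0.10, limma adjusted p = 0.0013) and Hsp90aa1 (0.30 ± 0.05, 0.0014), and the unadjusted p gave 3 and 0 too. Under HSF1 shRNA 2 rose and 0 fell, Hsp90aa1 (0.29 ± 0.05, limma adjusted p = 0.0043) and Hsph1 (0.35 ± 0.10, 0.049), with 2 higher and 1 lower by the unadjusted p, and the Hsph1 call was lost in 12 of 19 alternatives: the 3 scalings, the unmoderated test, the replicate block, and without any 1 of the 6 arrays compared or RPA1 shRNA array 1. In the direct comparison 1 was higher, Dnajb1, a call that passed in 12 of 19 alternatives (limma adjusted p up to 0.071). It was lost without any 1 HSF1 shRNA array or RPA1 shRNA arrays 1 or 2. The unmoderated test and the 6 arrays compared lost it too.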

How the data were processed

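RNA (200 ng per sample) was hybridised to Affymetrix Mouse Gene 1.0 ST arrays, 3 per shRNA group. The deposited log2 values were made by the authors with RMA in Partek 6.5, per the submitters' processing notes; the scale is not stated and log2 was inferred from the values. The genome build used by the authors is not given in the sources used here. Array medians lay between 7.72 and 7.81, and the number of arrays limits the precision.

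Of 35557 rows, 21789 had 1 gene symbol in the annotation table. Genes with several such rows were represented by the one brightest on average, which left 19938 genes, with no filter on dim ones. R 4.3.3 and limma 3.58.1 fitted 1 mean per group to all 9 arrays, with 3 contrasts, moderated variances and Benjamini-Hochberg adjustment over all genes, two-sided, at an adjusted p of 0.05. An exact test of 3 against 3 arrays cannot go below p = 0.1, so calls rest on this variance model. Levels are given as single arrays, differences ± SE, intervals at 95%.

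The genes described and the lists were chosen with earlier results of these data known. All 8 genes with a row were named, plus, of each list, up to 3 rises and 3 falls, and the 3 nearest profiles of each gene that changed from control by at least 0.585 (log2). Promoter letters and positions are from RefSeq, build GRCm38.p6. Arrays of different groups that share a number were not treated as pairs in the main fit. Between RPA1 shRNA and control shRNA, deviations of same-numbered arrays correlated at 0.07 to 0.09, and those of differently numbered arrays at -0.12 to 0.03. In the other comparisons same-numbered arrays gave -0.16 to 0.03 and differently numbered ones -0.16 to 0.16. Whether the numbers mark pairs was thus not settled, and a fit with the number as a replicate block is given below.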

Additional observations from a re-analysis of the deposited data

How the results depend on the processing

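Each difference was recomputed under 19 alternatives: quantile, median and cyclic loess scaling over the tested genes, genes above the median gene, a robust trended variance, the unmoderated test, array weights, the replicate block, the 6 arrays compared, every row as a unit, and leaving out each array. The scalings moved the median of all genes by at most 0.04 (log2). The lists of further genes were put through them after the data were seen.

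The count of members called under RPA1 shRNA (2) was 5 with array weights and 1 to 4 with an array left out. Under HSF1 shRNA (2) it was 1 with each of the 3 scalings, the unmoderated test and the replicate block, and 1 to 3 with an array left out. In the direct comparison (3) it was 5 with array weights, 1 with the unmoderated test or the 6 arrays compared, and 1 to 4 with an array left out. Over all genes array weights gave 9065, 5313 and 7926 calls for RPA1 shRNA, HSF1 shRNA and the direct comparison, against 5998, 3210 and 4863, and leaving out an array 4642 to 7245, 1953 to 4696 and 3228 to 6539. With the replicate block the Asf1b call under HSF1 shRNA was lost (limma adjusted p = 0.066), and so was the Hira call in the direct comparison (0.088). Of the further genes named, the block also ended the calls of Chd1 under RPA1 shRNA, Mms22l and Hsph1 under HSF1 shRNA, and H2az1 in the direct comparison.

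Signs changed only for differences that had not passed. Chaf1b under RPA1 shRNA was 0.0394 with array weights and between -0.0983 and 0.072 with an array left out, positive without RPA1 shRNA array 3. Supt16 under HSF1 shRNA was -0.0004 with cyclic loess. In the direct comparison Nap1l1 was 0.0297 with quantile, 0.0361 with median and 0.0283 with cyclic loess scaling, and between -0.0341 and 0.0239 with an array left out, positive when that was array 1 of HSF1 shRNA or of RPA1 shRNA. Asf1b lay between -0.0266 and 0.0897, negative without array 2 of either knockdown group. The causes were not tested. The files give no background level, so a fall toward it, as of a dim gene, could be understated.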
